A study of Mus musculus with 16 samples.

Results

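Of the 30588 PPARγ peaks in the deposited list, 2852 (9.32%) lay in dense groups, that is in runs of 5 or more peaks whose neighbouring centres were 10 kb or less apart. The peaks were sorted by centre on each chromosome and joined by distance alone. Signal and treatment could thus enter the choice only through the peak calls, as described below. This gave 477 dense groups among 20049 joined groups of any size. A further 13899 peaks lay in groups of 2 to 4, and 13837 were isolated, with no other PPARγ peak within 10 kb.

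The study mapped where proteins sit on DNA in 3T3-L1 cells by ChIP-seq, in which an antibody pulls down chromatin fragments that are then sequenced. The cells, a line of mouse fibroblasts, had been turned into adipocytes in culture with dexamethasone, isobutylmethylxanthine, insulin and serum. At day 7 the cultures received either 1 µM rosiglitazone, dissolved in 0.1% DMSO, or 0.1% DMSO alone, for 1 h. The 16 labelled samples cover antibodies against PPARγ and RNA polymerase II (2 per treatment) and against MED1, CBP and C/EBPα, as well as input chromatin (1 per treatment), of which the polymerase and input samples were not analysed here.

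PPARγ is the nuclear receptor that directs fat cell differentiation, and rosiglitazone is a synthetic agonist that binds it. When an agonist is bound, the receptor recruits coactivators, among them MED1, the Mediator subunit that contacts nuclear receptors, and CBP, a histone acetyltransferase. C/EBPα is a second adipogenic transcription factor that often binds close to PPARγ, and clusters of binding sites with high Mediator signal are a known feature of the regulatory DNA near genes that define a cell type.

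Values are in the authors' deposited units, which are tags scaled to a common library total, a tag being the mapped read of 1 fragment. Each factor has 1 column per treatment in the peak list, so no difference between treatments has a replicate check and none was tested. Intervals are 95% and cover counting error only. The deposited peak score follows the PPARγ tags of both columns together, most of them from rosiglitazone. A site with more PPARγ in rosiglitazone may thus be listed as a peak more readily, and dense groups may be richer in such sites. How far this holds was not tested. At dense peaks the median was 21 PPARγ tags in the rosiglitazone library and 12 in the DMSO library, 3 and 4 for MED1, 2 and 4 for CBP, and 5 and 3 for C/EBPα. Single peaks are therefore poorly measured for the coactivators, and most of what follows rests on tags summed over groups or classes of peaks. The DMSO library was 2.19 times deeper for MED1 and 2.74 times deeper for CBP, and the rosiglitazone library was 1.73 times deeper for C/EBPα.

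Most dense groups were small. Exactly 5 peaks made up 240 groups, 6 peaks 121 groups and 7 peaks 65 groups, while 51 groups held 8 or more and the largest held 15. The span from the first to the last peak had a median of 20745 bp and ran between 4895 and 74284 bp. Neighbouring centres inside a group were a median of 4290 bp apart and never closer than 230 bp, so the 186 bp peak windows did not overlap. Near the upper limit of the rule, 177 of the 2375 gaps inside dense groups measured 9 to 10 kb. Just outside the rule on size stood 513 groups of exactly 4 peaks.

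Dense peaks carried more PPARγ than other PPARγ peaks, and the excess was greater in rosiglitazone. The mean PPARγ signal per dense peak was 29.1 units in rosiglitazone and 15.7 units in DMSO. Peaks outside dense groups averaged 20.5 units in rosiglitazone and 13.8 units in DMSO, and isolated peaks 18.3 and 13.1 units. The dense peaks, 9.32% of the list, thus held 12.8% of all PPARγ tags at peaks in the rosiglitazone library and 10.5% in the DMSO library.

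Summed over all dense peaks, the PPARγ ratio of rosiglitazone to DMSO was 1.86 (1.84 to 1.88), against 1.49 (1.48 to 1.49) at peaks outside dense groups and 1.40 (1.40 to 1.41) at isolated peaks. Because dense peaks are also stronger, the comparison was repeated among peaks with the same total of PPARγ tags. At equal totals the odds that a PPARγ tag came from the rosiglitazone library were 1.20 times higher in dense groups than at all other PPARγ peaks (Mantel-Haenszel odds ratio, 1.19 to 1.22). Against isolated peaks alone the odds ratio was 1.26 (1.24 to 1.27). Within each of the 10 deciles of deposited peak score, the summed PPARγ ratio was higher in the dense peaks than outside. It was 1.56 against 1.37 in the lowest decile and 2.16 against 1.68 in the highest. The score follows the same total of tags, so the deciles are not a separate check. Neither matching removes a dependence of the number of neighbouring peaks on signal in rosiglitazone.

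The PPARγ ratio followed the number of peaks in the group, also within the dense groups. The number of peaks may itself depend on signal in rosiglitazone through the peak calls, so this series is a description. The ratio was 1.40 at isolated peaks, then 1.51, 1.60 and 1.65 in groups of 2, 3 and 4 peaks. Groups of 5 stood at 1.74 (1.71 to 1.77), groups of 6 at 1.87 (1.84 to 1.91), groups of 7 at 1.89 (1.84 to 1.94) and groups of 8 or more at 2.07 (2.02 to 2.13). The intervals of groups of 6 and of 7 overlapped, while every other step was larger than its counting error. On either side of the size rule, groups of 5 averaged 25.3 units per peak in rosiglitazone and 14.5 in DMSO, and groups of 4 averaged 25 and 15.1, so the rule cuts through a gradual series and not through a break.

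**Figure D1:**
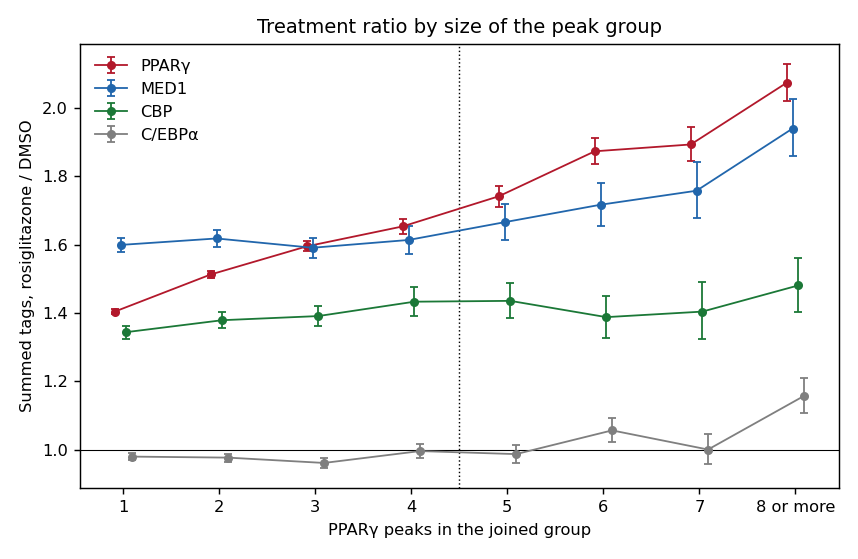
Ratio of summed tags, rosiglitazone over DMSO, for PPARγ, MED1, CBP and C/EBPα at PPARγ peaks in groups of 1 to 7 and of 8 or more peaks; bars are 95% intervals of counting error and the dotted line marks the rule of 5 peaks. The PPARγ ratio is 1.40 at isolated peaks and 2.07 in groups of 8 or more, while the CBP ratio lies between 1.34 and 1.48 and the C/EBPα ratio between 0.962 in groups of 3 and 1.16 in groups of 8 or more.

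PPARγ signal differed by group size mostly in rosiglitazone. From isolated peaks through groups of 5 to groups of 8 or more, the mean per peak in rosiglitazone was 18.3, 25.3 and 32.8 units. In DMSO the same 3 classes had 13.1, 14.5 and 15.8 units. The highest DMSO mean was that of groups of 6, with 16.9 units, so the DMSO series did not climb at every step.

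**Figure D2:**
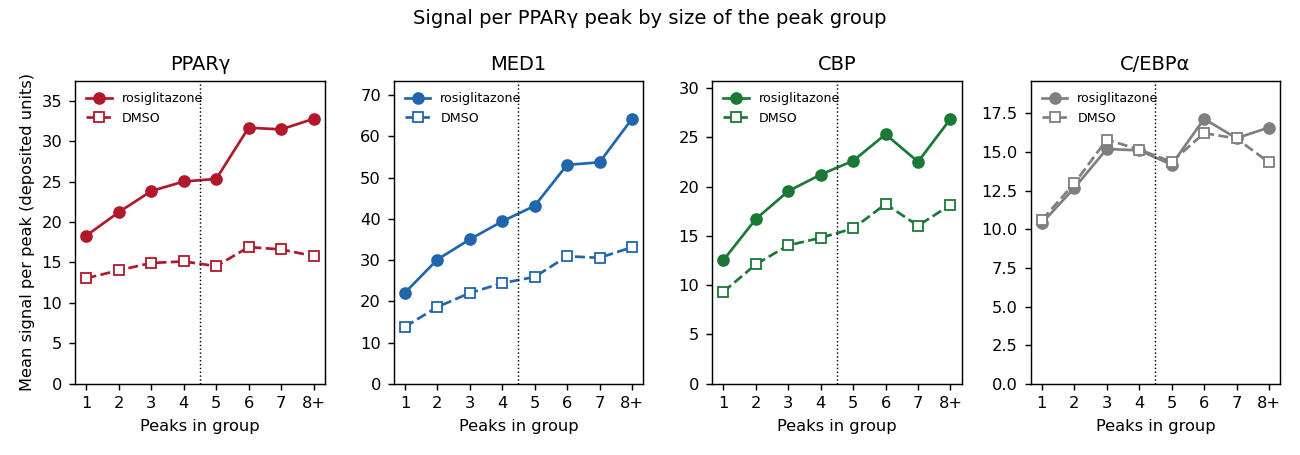
Mean signal per PPARγ peak (deposited units) against the number of peaks in the group, with filled circles for rosiglitazone, open squares for DMSO, and a dotted line at the rule of 5 peaks. PPARγ in DMSO stays between 13.1 and 16.9 units in all size classes, whereas MED1 in rosiglitazone runs between 22.1 and 64.3 units.

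Counted peak by peak, 1111 of the 2852 dense peaks (39.0%, 37.2 to 40.8) had at least 2-fold more PPARγ in rosiglitazone, where 30.0% of all PPARγ peaks did. At least 2-fold less PPARγ was found at 57 dense peaks (2.0%), against 4.43% of all peaks. These counts use log2 of the value plus a pseudocount of 1 unit, which understates the change of low peaks. The median log2 ratio was 0.72 in dense groups and 0.46 outside them. Over all PPARγ peaks the median was 0.50, and relative to that shift 656 dense peaks (23.0%) were at least 2-fold higher and 250 (8.77%) at least 2-fold lower, against 15.6% and 4089 (13.4%) of all peaks. The direction of the contrast between dense and other peaks was the same in both scalings, with more higher and fewer lower calls in dense groups.

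Over all PPARγ peaks the summed PPARγ ratio was 1.53, and the share of all joined groups above 1 was not computed. Summed over each group, PPARγ was higher in rosiglitazone in 444 of the 477 dense groups and lower in 33. Group sums had a median of 133 units in rosiglitazone, ranging between 36.6 and 1346 units, and of 79.1 units in DMSO, ranging between 17.6 and 465 units. The group ratios had a median of 1.76 with quartiles of 1.35 and 2.30, and extended between 0.621 and 5.56. All 477 groups held at least 50 PPARγ tags, and 177 of them (37.1%) were at least 2-fold higher, against 29.6% of the 7248 joined groups of any size with at least 50 tags. No dense group was at least 2-fold lower, against 0.993% of those 7248 groups. Dense groups were counted more deeply, with a median of 251 tags against 88, which narrows the counting spread of their ratios.

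Scaled instead to the ratio over all PPARγ peaks, 40 dense groups (8.39%) were at least 2-fold higher and 5 (1.05%) at least 2-fold lower in PPARγ, where 10.4% and 7.20% of all joined groups with 50 tags were. Under that scaling the share of dense groups that were 2-fold higher no longer exceeded the share among all groups.

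**Figure D3:**
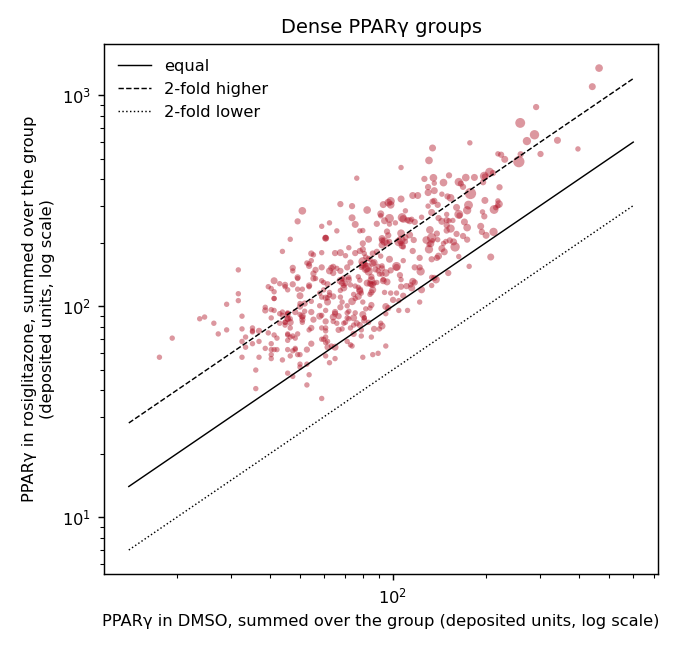
PPARγ summed over each of the 477 dense groups, in rosiglitazone (vertical axis) and in DMSO (horizontal axis), both in deposited units on log scales; larger points hold more peaks, and lines mark equal values and 2-fold differences. Of the groups, 444 lie above the line of equality and none lies below the line of 2-fold lower signal. The ratio over all PPARγ peaks is 1.53.

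Individual groups show how the summed ratios arise, and their coordinates are those of the file on mouse build mm9. The 2 largest groups held 15 peaks each. On chr8:127344038-127400413 the 15 peaks summed to 485 units of PPARγ in rosiglitazone and 256 units in DMSO, a ratio of 1.89 (1.64 to 2.19). Its peaks did not move together. The strongest peak, at chr8:127366964-127367150, had 108 units in rosiglitazone and 19.4 in DMSO (5.59-fold), and a neighbour at chr8:127364925-127365111 had 74.0 and 7.91 units, the highest ratio of the group at 9.35 (4.71 to 21.1). Farther along, the peak at chr8:127377567-127377753 had 16.6 units in rosiglitazone and 37.8 in DMSO, the lowest ratio at 0.440 (0.245 to 0.764).

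The other group of 15 peaks, chr11:98785618-98832902, summed to 343 units in rosiglitazone and 179 in DMSO, a ratio of 1.92 (1.62 to 2.28). It had a flatter profile, since its strongest peak reached only 46.6 units in rosiglitazone and 25.5 in DMSO. Peak ratios in it ran between 0.509 (0.172 to 1.37) and 4.57 (1.86 to 13.5) among peaks with at least 20 tags. Of its 15 peaks, 3 overlapped a C/EBPα peak, against 7 of 15 in the chr8 group.

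Among the next largest groups, chr19:47345019-47419303 had 12 peaks over the longest span, with 740 units of PPARγ in rosiglitazone and 259 in DMSO, a ratio of 2.86 (2.51 to 3.28). A single peak, chr19:47376894-47377080, held 331 of these units in rosiglitazone and 97.6 in DMSO. On chr11:120102420-120142717, 11 peaks summed to 650 units in rosiglitazone and 288 in DMSO (2.26, 1.98 to 2.58), and MED1 to 2158 and 832 units (2.59, 2.18 to 3.10). The group of 11 peaks on chr8:109638692-109675418 differed little, with 191 units in rosiglitazone and 159 in DMSO, a ratio of 1.20 (0.985 to 1.47) that became 0.788 when scaled to all PPARγ peaks. Within it the ratios again diverged, between 4.41 at chr8:109638692-109638878 and 0.355 at chr8:109645655-109645841.

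**Figure D4:**
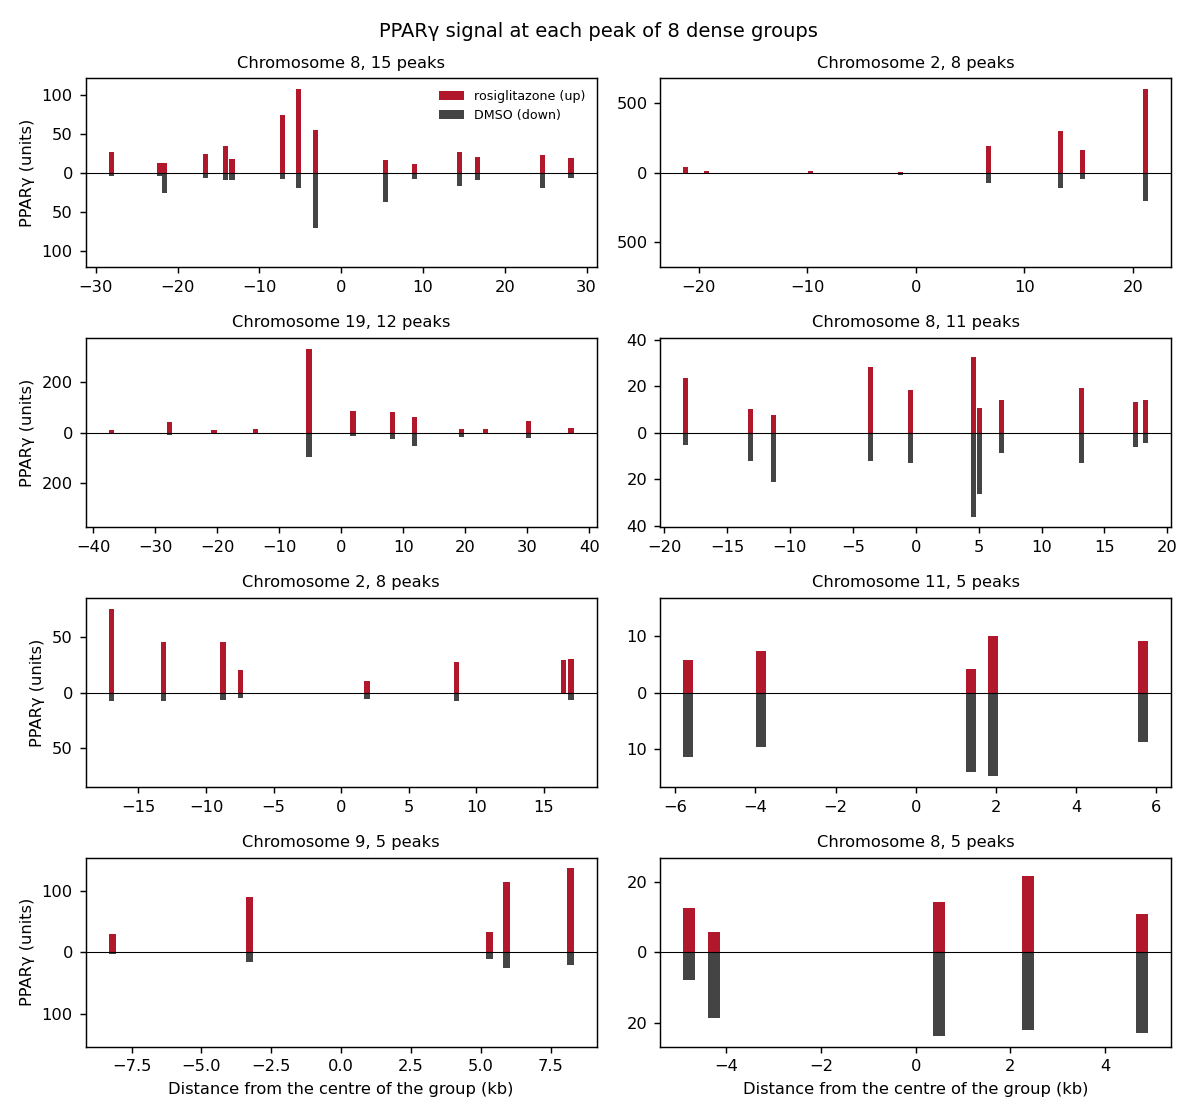
PPARγ at each peak of 8 dense groups, with deposited units in rosiglitazone drawn upward and in DMSO downward against distance from the group's centre in kb. The chromosome 19 group of 12 peaks has a single tallest bar of 331 units in rosiglitazone, and in the chromosome 11 and chromosome 8 groups of 5 peaks (right column, bottom) 4 of the 5 peaks have the longer bar in DMSO.

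The most PPARγ was held by a group of 8 peaks on chr2:167485409-167527933, with 1346 units in rosiglitazone and 465 in DMSO (2.89, 2.62 to 3.20). Its outermost peak, chr2:167527747-167527933, alone had 604 and 206 units. This group also had the highest MED1 ratio of the dense groups with at least 50 MED1 tags, at 3137 units in rosiglitazone and 647 in DMSO (4.85, 4.07 to 5.80). CBP differed less there, with 340 and 270 units (1.26, 0.901 to 1.74), and C/EBPα had 287 and 358 units (0.801, 0.652 to 0.987).

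The next by PPARγ tags was a group of 7 peaks on chr7:35903964-35929074, with 1099 units in rosiglitazone and 442 in DMSO (2.48, 2.24 to 2.76). In it the peak with most tags, chr7:35926552-35926738, had a ratio of 1.84, while the neighbouring peak, chr7:35923645-35923831, had 3.77 (3.09 to 4.64). The third, 6 peaks on chr17:56249238-56264633, had 880 and 291 units (3.02, 2.67 to 3.43). There, 3 adjacent peaks with 331, 265 and 248 units in rosiglitazone held nearly all of the signal, and the other 3 had at most 16.6 units.

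Among groups with at least 100 PPARγ tags, the highest ratio was that of 8 peaks on chr2:30749044-30783245, with 283 units in rosiglitazone and 51.0 in DMSO (5.56, 4.20 to 7.48). All 8 of its peaks were higher in rosiglitazone. Next came 5 peaks on chr9:63948369-63964942, with 405 and 76.5 units (5.29, 4.21 to 6.73), where MED1 was higher to a like degree with 635 and 140 units (4.54, 3.08 to 6.80). On chr2:173083258-173119572, 6 peaks had 253 and 49.2 units (5.13, 3.85 to 6.95), and without its strongest peak the ratio was 3.21. The fourth, 5 peaks on chr12:112662088-112685875, had 149 and 31.7 units (4.70, 3.27 to 6.93).

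At the low end, 4 groups of 5 peaks had less PPARγ in rosiglitazone, with intervals below 1. On chr11:61422652-61434188 the sums were 36.6 units in rosiglitazone and 58.9 in DMSO (0.621, 0.415 to 0.922), and none of its peaks overlapped a C/EBPα peak. On chr10:61089552-61107062 they were 59.9 and 89.7 units (0.667, 0.487 to 0.911), on chr8:71511934-71521687 64.8 and 95 units (0.683, 0.504 to 0.922), and on chr6:129180293-129188098 59.0 and 86.2 units (0.685, 0.497 to 0.939). In rosiglitazone all 4 lay below the median of the dense groups, which was 133 units. In DMSO the chr11 group lay below the median of 79.1 units and the other 3 above it. They were picked as the extremes of 477 groups, so their intervals describe counting error and not how often such a value is met.

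MED1 signal differed more between dense and other peaks than PPARγ signal did. The mean MED1 signal per dense peak was 50.9 units in rosiglitazone and 29.1 units in DMSO. Outside dense groups it was 27.6 and 17.2 units, and at isolated peaks 22.1 and 13.8 units. On either side of the size rule, groups of 4 averaged 39.4 and 24.4 units and groups of 5 averaged 43.2 and 25.9. The MED1 series was thus gradual as well. In groups of 8 or more peaks the mean reached 64.3 units in rosiglitazone and 33.1 units in DMSO. The dense peaks held 16% of MED1 tags at PPARγ peaks in rosiglitazone and 14.9% in DMSO, against 9.32% of the peaks.

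The excess of MED1 remained when dense peaks were set against other peaks with the same total of PPARγ tags, both libraries together. Dense peaks held 1.44 times (1.42 to 1.46) the MED1 tags so expected in rosiglitazone and 1.36 times (1.34 to 1.37) in DMSO. For CBP the same ratios were 1.21 (1.19 to 1.23) in rosiglitazone and 1.20 (1.19 to 1.22) in DMSO. For C/EBPα they were 1.02 (1.01 to 1.03) and 0.979 (0.966 to 0.993). At equal totals of PPARγ tags, dense peaks thus carried more of both coactivators in both treatments. C/EBPα stayed within a few percent of other peaks. Within each treatment PPARγ was not equal, since dense peaks held a larger part of their tags in rosiglitazone than their matches did. 1 dense peak had no match and was left out of these values.

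The treatment ratio of MED1 separated dense from other peaks less clearly than that of PPARγ. Summed over dense peaks it was 1.75 (1.71 to 1.78), against 1.60 (1.59 to 1.62) outside. It was 1.60, 1.62, 1.59 and 1.61 in groups of 1 to 4 peaks, then 1.67, 1.72, 1.76 and 1.94 in groups of 5, 6, 7 and 8 or more. Among peaks with the same total of MED1 tags, however, the odds ratio of dense against other peaks was 1.02 (0.996 to 1.04), an interval that includes 1. It was 0.958 with a joining distance of 20 kb and 1.09 with no matching on tags, so whether the MED1 ratio differed between dense and other peaks depended on the setting.

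The MED1 ratio over all PPARγ peaks was 1.63, and the share of all joined groups above 1 was not computed. Over the 321 dense groups with at least 50 MED1 tags, the MED1 ratio had a median of 1.79, with 280 groups above 1 and 41 below. At least 2-fold higher were 129 (40.2%), against 43.4% of all 1122 joined groups with 50 MED1 tags, and at least 2-fold lower were 9 (2.80%), against 3.30%. Neither share exceeded its background. Scaled to the MED1 ratio over all PPARγ peaks, 17 (5.30%) were 2-fold higher and 25 (7.79%) 2-fold lower, against 9.71% and 8.82%, so the balance of higher and lower groups turns with the scaling.

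Among dense groups with at least 50 MED1 tags, the third highest MED1 ratio, after the chr2 and chr9 groups above, was on chr15:85533734-85555035, with 796 units in rosiglitazone and 189 in DMSO (4.22, 3.01 to 5.97). PPARγ there had 383 and 136 units, a ratio of 2.81. The lowest MED1 ratio at that minimum was on chr8:71511934-71521687, a group also among the lowest for PPARγ, with 38.3 units in rosiglitazone and 182 in DMSO (0.211, 0.0656 to 0.524). It was followed by chr11:62976339-62995633 with 53.6 and 154 units (0.348, 0.132 to 0.780) and chr15:77189120-77197968 with 53.6 and 150 units (0.356, 0.135 to 0.799). Their PPARγ ratios were 0.914 (0.701 to 1.19) and 0.866 (0.609 to 1.23), so all 3 had PPARγ ratios below 1, though only the first beyond counting error. Without the peak that held most MED1 tags, a setting chosen after the values were seen, their MED1 ratios were 0.365, 0.547 and 0.666.

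CBP also lay higher at dense peaks, with a mean of 24.0 units in rosiglitazone and 16.8 units in DMSO, against 15.4 and 11.2 units outside dense groups. Groups of 4 averaged 21.2 and 14.8 units of CBP and groups of 5 averaged 22.6 and 15.7. The treatment ratio of CBP was 1.43 (1.39 to 1.46) in dense groups and 1.37 (1.36 to 1.38) outside. At equal CBP tags the odds ratio was 1.04 (1.01 to 1.06), and it turned to 0.978 with a joining distance of 5 kb. Across group sizes the CBP ratio stayed between 1.34 at isolated peaks and 1.48 in groups of 8 or more, without a steady climb.

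Among the 264 dense groups with at least 50 CBP tags, 39 (14.8%) were at least 2-fold higher in rosiglitazone, against 13.3% of 995 joined groups, and 3 (1.14%) at least 2-fold lower, against 1.01%. Scaled to the CBP ratio over all PPARγ peaks, 5 (1.89%) were higher and 8 (3.03%) lower, against 2.11% and 3.92%. Both pairs lie close to their backgrounds.

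Among dense groups with at least 50 CBP tags, the highest CBP ratio was on chr6:113419484-113437493, with 243 units in rosiglitazone and 75.1 in DMSO (3.23, 1.99 to 5.26), followed by chr9:43934271-43953981 (2.99, 1.82 to 4.90) and chr19:40421061-40451349 (2.92, 1.73 to 4.93). The lowest was on chr6:89287681-89311778, with 109 units in rosiglitazone and 254 in DMSO (0.429, 0.246 to 0.709), where PPARγ was 2.91-fold higher. On chr6:129180293-129188098 the CBP ratio was 0.437 and on chr11:117819774-117837437 it was 0.480, with PPARγ ratios of 0.685 and 2.58. A low CBP ratio was therefore met both where PPARγ was higher and where it was lower in rosiglitazone. Without the peak that held most CBP tags, the 3 highest ratios were 1.995, 5.03 and 2.40 and the 3 lowest 0.531, 0.686 and 0.294.

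C/EBPα peaks were part of nearly every dense group. Of the 477 groups, 453 had at least 1 peak that shared 1 bp or more with a C/EBPα peak, 24 had none, and in 1 group every peak did. The median was 2 such peaks per group and the maximum 7. Over all PPARγ peaks the share with a C/EBPα peak was 36.1%. At that share most groups of 5 or more peaks would hold at least 1, and the expected count was not computed. In all, 1119 dense peaks (39.2%, 37.4 to 41.1) overlapped a C/EBPα peak, against 35.7% (35.2 to 36.3) outside dense groups. Outside, the share was 38.7% (37.9 to 39.5) in groups of 2 to 4 and 32.8% (32.0 to 33.6) at isolated peaks. The share in groups of 2 to 4 lay within the dense interval, so it was the isolated peaks that stood apart.

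The difference between dense peaks and those outside followed peak strength. Peaks outside dense groups with the same score deciles would give a share of 41.4%, above the 39.2% found, and the dense share was the higher one in only 3 of the 10 deciles. With a joining distance of 5 kb the order turned as well, with 32.1% in dense groups and 36.1% outside. Without matching on score, the dense share was the higher one under the other joining and overlap rules tried, such as 39.5% against 34.7% at 20 kb and 41.3% against 35.9% with at least 7 peaks.

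The C/EBPα signal itself differed less between treatments than that of the other 3 proteins. Its mean per dense peak was 15.6 units in rosiglitazone and 15.1 units in DMSO, a ratio of 1.04 (1.02 to 1.05), against 0.977 (0.971 to 0.983) outside dense groups. In groups of 8 or more peaks it reached 1.16 (1.11 to 1.21). At equal C/EBPα tags the odds ratio of dense against other peaks was 1.07 (1.05 to 1.09). With a joining distance of 20 kb the summed ratio of dense peaks was 0.998, so the side of 1 on which it lies depends on the rule. Over 356 dense groups with at least 50 C/EBPα tags, 29 (8.15%) were at least 2-fold higher, against 9.82% of 2424 joined groups, and 4 (1.12%) at least 2-fold lower, against 4.46%. Scaled to all PPARγ peaks these counts were again 29 and 4, against 10.3% and 3.96%.

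A few groups with at least 50 C/EBPα tags departed from this. On chr17:34811831-34837946, C/EBPα had 91.7 units in rosiglitazone and 19.9 in DMSO (4.61, 2.30 to 10.5). Of these, 63.7 and 6.62 units came from the peak starting at position 34829862, and the ratio of the other peaks was 2.12. On chr5:111025072-111048995 it had 322 and 86.1 units (3.74, 2.66 to 5.39), but 0.666 without the peak with most PPARγ, and on chr1:154418500-154430912 206 and 64.0 units (3.22, 2.16 to 4.96), but 1.54 without that peak. In the opposite direction, chr6:108608770-108618719 had 49.7 units in rosiglitazone and 172 in DMSO (0.288, 0.191 to 0.429), chr19:7008127-7029094 had 25.5 and 86.1 units (0.296, 0.163 to 0.520), and chr11:106638975-106650761 had 49.7 and 139 units (0.357, 0.233 to 0.541). PPARγ was higher in rosiglitazone in all 6 of these groups, with ratios between 1.63 and 2.15.

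Dense peaks with a C/EBPα peak were stronger and had the higher PPARγ ratio. They averaged 39.8 units of PPARγ in rosiglitazone and 20.3 in DMSO, a ratio of 1.96 (1.93 to 1.99). Dense peaks without one averaged 22.2 and 12.7 units, a ratio of 1.75 (1.72 to 1.78). MED1 gave 1.75 (1.70 to 1.79) with and 1.74 (1.69 to 1.80) without a C/EBPα peak, and CBP 1.40 (1.36 to 1.44) and 1.46 (1.41 to 1.52). The split by C/EBPα was thus seen in the PPARγ ratio and not beyond counting error in the coactivators. It was not matched on strength, and the median score was 18.8 with and 12 without a C/EBPα peak. Outside dense groups the PPARγ ratios were 1.58 with and 1.40 without C/EBPα, so both kinds of dense peak exceeded both kinds of other peak.

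Inside a group the strongest peak differed from the rest. The peak with most PPARγ tags held a median of 32.2% of its group's tags, ranging between 13.8% and 87.3%. It overlapped a C/EBPα peak in 280 groups (58.7%), against 35.3% of all lower-ranked peaks. The median score was 34.6 at these top peaks and 12.4 at the lower-ranked ones, and the 2 shares were not matched on score. Outside dense groups the share was 18.5% in score decile 1 and 68.6% in decile 10. By rank within the group, the PPARγ ratio was 1.99 (1.96 to 2.03) at the first peak, 1.95 at the second, 1.80 at the third, 1.67 at the fourth, 1.65 at the fifth and 1.66 from the sixth on. MED1 gave 1.92, 1.78, 1.72, 1.70, 1.42 and 1.57 at the same ranks. Ranks were set by the PPARγ tags of both libraries together, most of them from rosiglitazone, so the PPARγ ratio by rank is partly fixed by the ranking and is a description.

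The higher ratio of dense groups was not held by the top peak alone. All dense peaks but the strongest of each group averaged 21.7 units of PPARγ in rosiglitazone and 12.2 in DMSO, a ratio of 1.78 (1.76 to 1.81), above the 1.49 of peaks outside dense groups. The outermost peaks of the groups had a PPARγ ratio of 1.79 (1.76 to 1.83) and the inner peaks 1.89 (1.87 to 1.92). For C/EBPα the outermost peaks had 0.967 (0.938 to 0.997) and the inner peaks 1.07 (1.05 to 1.09). Larger groups give more inner peaks, and the median score was 14.1 at inner and 13.2 at outermost peaks. The comparison by position was not matched on group size or score.

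Peaks of 1 group often differed in direction. Of 469 groups with at least 3 peaks of 20 or more PPARγ tags, all such peaks were higher in rosiglitazone in 153 groups and all were lower in 2, while 314 groups were mixed. The highest peak ratio of a group was a median of 4.82 times its lowest, with 7 groups left without a finite value because a peak had 0 DMSO tags. Over all dense peaks with at least 20 tags the lower quartile of the log2 ratio was only 0.0925, so ratios below 1 were common. How often peaks taken without regard to group would be mixed was not computed. Counting error also spreads the ratios of low peaks, and its part in the mixing was not tested.

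The spread of ratios was larger than counting error both between and within groups. Counting error alone would give a chi-square per degree of freedom of about 1. For PPARγ it was 9.84 between groups and 3.97 among the peaks of a group. MED1 had 4.62 and 2.31, CBP 2.09 and 1.70, and C/EBPα 3.83 and 1.67. The value between groups also grows with the tags summed, so the intraclass correlation, the share of variance of the log2 ratio that lies between groups, was computed for peaks with at least 20 tags of the factor. It was 0.11 for PPARγ, 0.21 for MED1, 0.10 for CBP and 0.11 for C/EBPα. In groups of 2 to 4 peaks it was 0.10, 0.25, 0.06 and 0.10. The MED1 value rests on 553 peaks in 194 dense groups. Over all peaks, with no minimum of tags, the values in dense groups were 0.105 for PPARγ, 0.00246 for MED1, 0.0292 for CBP and 0.0134 for C/EBPα, and in groups of 2 to 4 peaks 0.106, 0.0461, 0.0108 and 0.0433. For MED1, CBP and C/EBPα the correlation thus depended on the minimum of tags.

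MED1 followed PPARγ from group to group. In the 177 groups where PPARγ was at least 2-fold higher, MED1 had 74.1 units per peak in rosiglitazone and 34.9 in DMSO, a ratio of 2.12 (2.07 to 2.18). In the 267 groups with a PPARγ ratio between 1 and 2, it had 39.2 and 26.8 units, a ratio of 1.46 (1.42 to 1.50). In the 33 groups with a PPARγ ratio below 1, it had 15.9 and 15.4 units, a ratio of 1.03 (0.909 to 1.17). MED1 in DMSO also differed between these classes and was highest in the class with the highest PPARγ ratios.

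CBP and C/EBPα did not follow PPARγ in this way. CBP ratios in the same 3 classes were 1.45 (1.40 to 1.51), 1.42 (1.37 to 1.46) and 1.32 (1.19 to 1.46), and those for C/EBPα 1.10 (1.07 to 1.13), 0.987 (0.963 to 1.01) and 1.03 (0.952 to 1.12). Among the 321 groups that held 50 or more tags for each of the pair, Spearman's rho between the log2 ratios for MED1 and those for PPARγ was 0.44, and Pearson's r was 0.49. For PPARγ and CBP the rho was 0.04 (n = 264), for PPARγ and C/EBPα 0.11 (n = 356), and for MED1 and CBP -0.01 (n = 231). These correlations describe the same pairs of libraries at the same regions, whose depth and strength they share.

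**Figure D5:**
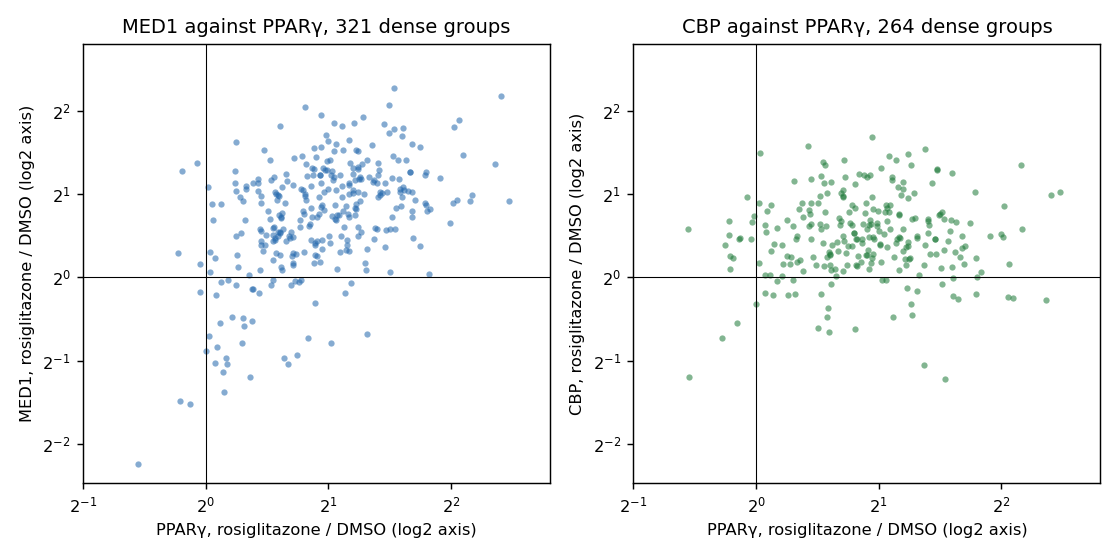
Ratios of rosiglitazone to DMSO summed over each dense group (log2 axes), with MED1 against PPARγ in 321 groups on the left and CBP against PPARγ in 264 groups on the right; each point is 1 group with at least 50 tags of the coactivator. MED1 ratios climb with PPARγ ratios (rho 0.44) and CBP ratios do not (rho 0.04).

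The stretches between the peaks were read at C/EBPα peaks that overlapped no PPARγ peak, a measure the joining rule did not use. Inside the spans of dense groups there were 477 such C/EBPα peaks, which had 9.34 units of PPARγ in rosiglitazone and 5.00 in DMSO, a ratio of 1.87 (1.78 to 1.96). The 19009 elsewhere had 4.96 and 3.41 units, a ratio of 1.45 (1.44 to 1.47). At equal PPARγ tags the odds ratio was 1.19 (1.13 to 1.24). MED1 and CBP also lay higher inside the spans, MED1 with 28.9 units in rosiglitazone and 22.3 in DMSO against 12.1 and 9.87 elsewhere, and CBP with 15.3 and 12.1 against 8.70 and 7.91. Their treatment ratios did not both follow that of PPARγ, since at equal tags the odds ratio was 0.942 (0.885 to 1.00) for MED1 and 1.13 (1.05 to 1.21) for CBP.

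Much of this was close to PPARγ peaks. Only 239 of the windows inside the spans lay at least 1 kb from every PPARγ peak centre, and there the PPARγ ratio was 1.55 (1.44 to 1.67), with 6.41 units in rosiglitazone and 4.14 in DMSO. Against windows elsewhere at that distance the odds ratio was 1.09 (1.01 to 1.17), and against those that also had a PPARγ peak within 10 kb it was 1.05 (0.975 to 1.14), an interval that includes 1. For MED1 the odds ratio against windows elsewhere at that distance was 0.897 (0.808 to 0.995). The distance limit was set after the values had been seen.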

How the data were processed

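The deposited files used here list PPARγ peaks and C/EBPα peaks. The tools are, per the submitters' processing notes, Bowtie, HOMER, edgeR and FastQC, on build mm9, with versions and roles not given in the sources used here. The signal columns hold tags per peak window as scaled by the authors. The deposited score, 1 value per peak, was used for deciles and a stricter list, and the deposited fraction given for each peak was not used. The PPARγ columns name no replicate, so whether each holds 1 or both labelled samples is unknown. For MED1 in rosiglitazone the column header reads BRL, a code name for rosiglitazone.

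Within 0.02 steps, 100% of the signal values above 0 were whole multiples of 1 step per column, so tags were recovered and summed. If the deposited signal is scaled to 10 M tags, depths in rosiglitazone and DMSO were 12.0 and 11.4 M for PPARγ, 1.31 and 2.86 M for MED1, 1.65 and 4.52 M for CBP, and 7.85 and 4.53 M for C/EBPα. Other columns of per-sample values left unused numbered 0. With 1 column per factor and treatment, no count model was run. Ratios have exact Clopper-Pearson intervals, and odds ratios (Mantel-Haenszel, over strata of total tags) have Robins-Breslow-Greenland intervals. Expected tags at equal PPARγ totals come from peaks outside dense groups in the same strata of PPARγ tags, both libraries together. Tags carry no molecular identifiers, so intervals cover counting error only. Scripts ran in Python 3.11.15 with numpy 2.4.6, pandas 2.3.3, scipy 1.17.1 and matplotlib 3.10.9, and were tested on simulated data.

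Groups were named by rule: the 5 with most peaks, the 4 highest and 4 lowest PPARγ ratios (at least 100 tags), the 3 highest and 3 lowest MED1, CBP and C/EBPα ratios (at least 50 tags), and the 3 with most PPARγ tags. Within groups named by size, PPARγ ratio or PPARγ tags, the peak with most tags and the extremes of ratio could be named, and the neighbouring peaks given for chr7 and chr17 were chosen after their values were seen. Members and lists were chosen with earlier results of these data known. Matching on PPARγ tags, the windows at C/EBPα peaks and the intraclass correlation were chosen once values had been seen. Gene annotation and sequence of build mm9 were not used here, so groups are given by coordinates.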

Additional observations from a re-analysis of the deposited data

How the results depend on the processing

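No paired analysis was possible because the columns carry no replicate number, and with 1 column per treatment no replicate could be left out. Depth limits single peaks of MED1 and CBP most. The joining rule sets the numbers: 246 peaks in 46 groups at 5 kb, 8680 in 1208 at 20 kb, 4904 in 990 with at least 4 peaks, 926 in 116 with at least 7, and 1753 in 296 for peaks at or above the lower quartile of score. The PPARγ ratio under these 5 rules was 1.91, 1.74, 1.77, 1.98 and 1.91, and the MED1 ratio 1.58, 1.65, 1.70, 1.85 and 1.79. CBP gave 1.35 at 5 kb. C/EBPα gave 1.15 at 5 kb, 0.998 at 20 kb, 1.08 with at least 7 peaks and 1.07 for the stricter list. Without each group's top peak PPARγ gave 1.78 and MED1 1.68. Relative to peaks outside dense groups the ratios were 1.25 for PPARγ, 1.09 for MED1, 1.04 for CBP and 1.06 for C/EBPα, which is lower for the first 3 by construction. Leaving out the 9 groups in high background (at least 3 peaks without a C/EBPα peak whose median C/EBPα signal was at least 3 times that of all such peaks) moved no ratio beyond its counting interval.

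Peaks at least 2-fold higher in PPARγ numbered 98 at 5 kb, 3176 at 20 kb and 656 after centring, and lower ones 3, 247 and 250, with 17 lower at a pseudocount of 5. Scaled to all PPARγ peaks, groups 2-fold higher and lower were 40 and 5 for PPARγ, 17 and 25 for MED1, and 5 and 8 for CBP. With no minimum of tags, 22 groups were lower in MED1, 87 higher and 17 lower in CBP, and 11 lower in C/EBPα. With at least 100 tags there were 66 higher and 5 lower in MED1, 17 higher in CBP, and 13 higher and 2 lower in C/EBPα. Without top peaks, 1 was lower in CBP and 1 in C/EBPα.

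The share of dense peaks with a C/EBPα peak was 34.7% for an overlap of at least 50% of the peak, 22.4% for centres within 50 bp, 32.1% at 5 kb and 41.3% with at least 7 peaks. PPARγ odds ratios were 1.25 with no strata, 1.26 against isolated peaks, 1.29 at 5 kb and 1.17 at 20 kb. For MED1 they were 1.06 by score, 1.09 with no strata, 0.995 against isolated peaks, 0.967 at 5 kb and 0.958 at 20 kb. CBP gave 0.978 at 5 kb and 1.07 at 20 kb, and C/EBPα 1.05 by score and 1.24 at 5 kb. The spread of PPARγ between groups was 5.48 at 5 kb. C/EBPα on chr5:111025072-111048995 gave 0.666 without its top peak, which also held most of its C/EBPα tags. At C/EBPα windows at least 1 kb from PPARγ peaks the ratios were 1.55 for PPARγ, 1.16 for MED1 and 1.08 for C/EBPα. Beyond what scaling and thinning fix by construction, the cause of these differences was not tested.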

Other observations

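Dense groups were unevenly spread over the chromosomes, where 9.32% of the whole list lay in dense groups. Chromosome 19 had 18.3% of its 1490 PPARγ peaks in 42 dense groups and chromosome 6 had 15% of its 2737 in 70 groups. On chromosome 18 the share was 1.88% of 744 peaks, on chromosome 13 it was 2.02% of 1041, and on chromosome X 2.10% of 477. The shares were not set against the number of peaks per length of chromosome, on which joining by distance depends.

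The PPARγ ratio of dense peaks exceeded that of the other peaks on 18 of 20 chromosomes. It lay between 1.28 on chromosome 13 and 2.17 on chromosome 2 for dense peaks, and between 1.35 on chromosome X and 1.68 on chromosome 11 for the others. The exceptions were chromosome 13, with 1.28 (1.12 to 1.47) in 4 dense groups against 1.37 outside, and chromosome X, with 1.33 (1.06 to 1.68) in 2 dense groups against 1.35 outside. Among the 18, chromosome 12 had 1.51 (1.37 to 1.67) in dense peaks against 1.51 outside. Chromosome 4 had 1.66 (1.57 to 1.76) against 1.61, so on both the difference was within counting error. The MED1 ratio was higher in dense peaks on 13 chromosomes and the CBP ratio on 13.

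The same joining rule applied to the C/EBPα list gave 345 dense C/EBPα groups. Of these, 118 (34.2%) overlapped a dense PPARγ group, and 119 of the 477 dense PPARγ groups (24.9%) overlapped a dense C/EBPα group. By this rule most regions dense in one factor were thus not dense in the other. The share of all joined groups that overlap a dense group of the other factor was not computed. These shares can therefore not be called low or high.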
